A study of Mus musculus with 18 samples.

Results

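Pre-osteoclasts that lacked estrogen receptor α (ERα) were compared with pre-osteoclasts in which the receptor gene was intact. The comparison rests on 6 of the 18 Illumina MouseRef-8 arrays of the series, 3 of ERαΔLysM cells and 3 of ERαf/f cells, chosen by their labels as pre-osteoclast progenitors of either genotype. ERαΔLysM mice carry floxed ERα alleles and Cre under the regulatory elements of the lysozyme M gene, which is active in macrophages, monocytes and neutrophils. ERαf/f littermates carry the floxed alleles without Cre, and all mice were on a C57BL/6 background. According to the methods of the study, bone marrow was taken from 3 mice per genotype at 2 to 3 months of age. The marrow cells were grown into bone marrow macrophages (BMMs) with M-CSF, and then both genotypes received M-CSF and RANKL at 30 ng/ml each for 2 days. The study's text adds that the cells on the arrays had a short exposure to 17β-estradiol, which the labels do not mention, so no cells without estradiol are compared here. The other 12 arrays hold BMMs and mature osteoclasts (4 days of RANKL) of the same genotypes, 3 per group, and served here to estimate the spread and to test whether a difference depended on the stage. Whether each array of a group came from a mouse of its own is not stated, and p values therefore reflect only how these samples vary, which may be technical.

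Osteoclasts are the cells that resorb bone. They arise from macrophage precursors when RANKL engages its receptor RANK, a member of the TNF receptor family, and the precursors switch on NFATc1, fuse and start to make cathepsin K, TRAP and an acid-secreting membrane. ERα is a nuclear receptor that binds estradiol and regulates transcription at estrogen response elements or through partners such as AP-1 and NF-κB. Loss of estrogen is known to raise osteoclast number and bone resorption, and the pre-osteoclast is the mononuclear stage between the macrophage and the fused cell.

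The measurement is the brightness of labelled RNA caught by bead-bound probes, given on a log2 scale unless stated otherwise. On the linear scale the median signal of an array was 186, 131 and 116 in ERαΔLysM pre-osteoclasts, against 181, 166 and 131 in ERαf/f pre-osteoclasts. Probes detected above the negative controls numbered 11084 to 11934 in ERαΔLysM and 11333 to 11948 in ERαf/f cells. Arrays of 1 genotype correlated at 0.984 to 0.987 over the tested probes and arrays of different genotypes at 0.982 to 0.992, so the genotypes did not separate as whole profiles. Xist was detected on all 6 arrays and the Y-linked genes Kdm5d and Eif2s3y on none, while Uty, also Y-linked, was near background and detected on 1 ERαΔLysM and 2 ERαf/f arrays. The deletion itself was out of reach of the arrays, since both probes for Esr1, the gene of ERα, were below detection on all 6 arrays, as were all probes for Esr2 and Gper1. Lyz2, the gene that drives the Cre, was at 13.96, 13.93 and 13.87 log2 units in ERαΔLysM and 14.35, 14.10 and 13.92 in ERαf/f cells, and did not pass the test (adjusted p = 0.65 from limma).

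Defining osteoclast genes were strongly expressed in both genotypes. Ctsk, the gene of the collagenase cathepsin K, was at 14.93, 14.97 and 14.90 log2 units in ERαΔLysM and at 14.94, 14.85 and 14.73 in ERαf/f cells. Acp5, which encodes TRAP, was at 10.27, 10.13 and 10.38 against 10.45, 10.34 and 10.21. Both sets of values overlapped, and of 17 osteoclast markers 14 were tested. The exceptions included Itgb3 and Atp6v0d2, whose probes were below detection on at least 4 of the 6 arrays. Calcr, the calcitonin receptor gene of later osteoclasts, was detected on 2 ERαΔLysM arrays and 1 ERαf/f array.

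Of 11568 probes tested, 17 (0.147%) passed the test of genotype in limma, an adjusted p under 0.05. In ERαΔLysM cells 10 (0.0864%) were higher and 7 (0.0605%) lower. The 10 higher probes stood for Tnfrsf9 (a pair of probes), Cyb561, Arf2, Nsf, Gna13, Ltf, Ctsg, Antxr1 and Srd5a3, and the 7 lower for Tmem267, Cep135, Cox18, Rassf4, Acbd4, Stac2 and a probe without a gene symbol. At an unadjusted p under 0.05 there were 1014 probes (8.77%), of which 486 (4.2%) were higher and 528 (4.56%) lower. On 1200 probes (10.4%) the arrays of both genotypes were clear of each other, with ERαΔLysM above on 573 (4.95%) and below on 627 (5.42%), and all 17 were of this kind. The difference was above 0 for 48.7% of the tested probes, with a median of −0.01 log2 units. In a culture of mixed cells, more or fewer cells of a type and more or less RNA per cell cannot be told apart.

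**Figure D1:**
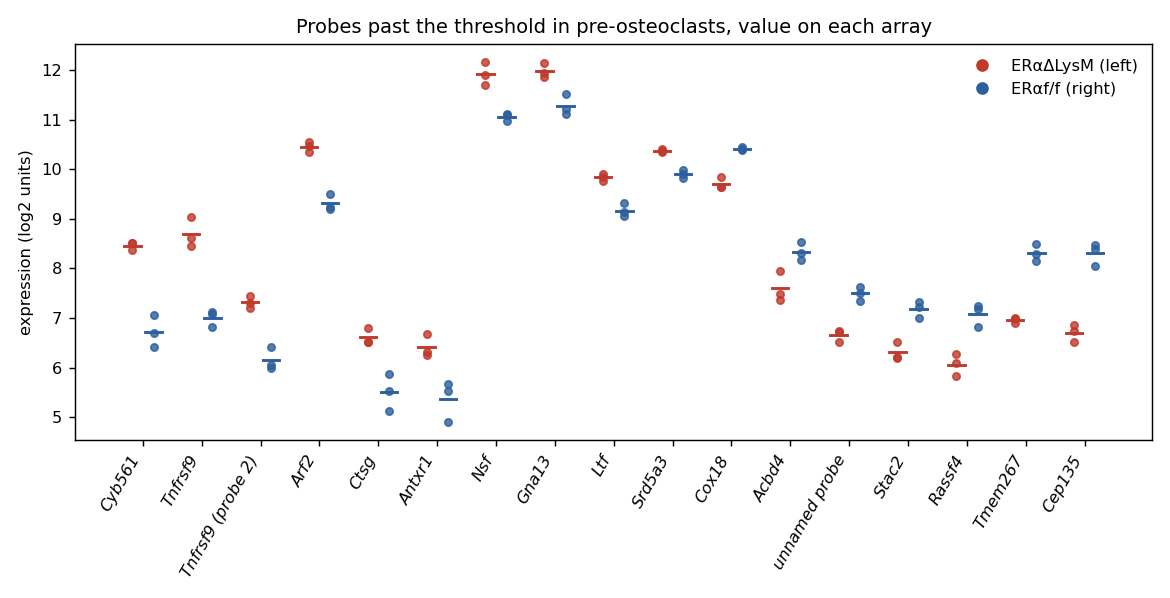
Expression in log2 units on each of the 6 pre-osteoclast arrays for the 17 probes past the threshold, with ERαΔLysM on the left and ERαf/f on the right of each pair. Points are arrays and bars are group means; no pair of groups overlaps, and the probes run from the highest difference (Cyb561, 1.74) to the lowest (Cep135, −1.60).

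Not all 17 were equally firm. Cyb561, Arf2, Tmem267, Nsf and 1 probe of Tnfrsf9 passed the test in each of the 6 fits that left out 1 pre-osteoclast array. The other 12 missed it in at least 1 such fit, and Cep135, Srd5a3 and Stac2 in all 6. Fitted on the 6 pre-osteoclast arrays alone, 3 probes passed, those of Cyb561, Tmem267 and Cep135. Between 6 (without ERαΔLysM array 3) and 12 (without ERαf/f array 3) of the 17 probes were lost when an array was left out, with 10 lost without ERαΔLysM array 1, 11 without array 2, 10 without ERαf/f array 1 and 7 without array 2. The arrays also fell into 3 bright ones (ERαΔLysM 1 and ERαf/f 1 and 2) and 3 dim ones. All 17 probes kept their direction within both sets. That had to be so because their groups did not overlap, and it adds no support.

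**Figure D2:**
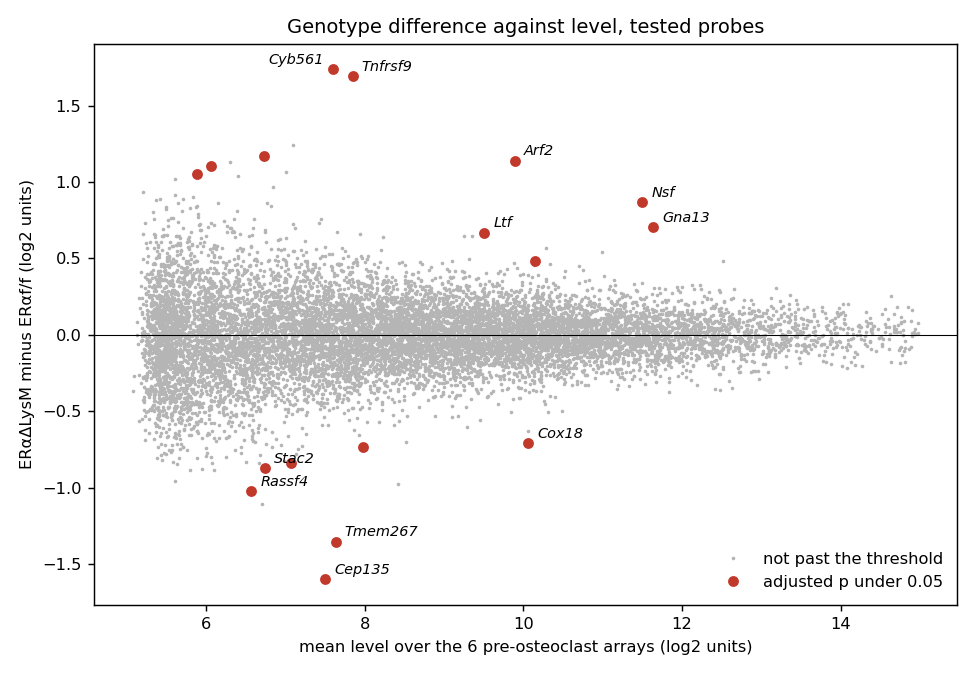
Genotype difference in log2 units (ERαΔLysM minus ERαf/f) against the mean level over the 6 pre-osteoclast arrays, 1 point per tested probe. The 17 probes past the threshold are drawn large. Dim probes scatter more widely than bright ones, and Arf2 (1.14) and Nsf (0.87) stand clear of the other probes at their level.

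Among receptors, the clearest change was in Tnfrsf9, which encodes 4-1BB (CD137), a costimulatory member of the TNF receptor family best known on activated T cells. Its first probe was at 8.61, 9.03 and 8.44 log2 units in ERαΔLysM pre-osteoclasts, against 7.08, 6.81 and 7.12 in ERαf/f pre-osteoclasts. Every ERαΔLysM array was more than 1 unit above every ERαf/f array. The difference was 1.69 (standard error 0.15, adjusted p = 4.36e-05 from limma), which is 3.24-fold, with 1.67 within the bright and 1.62 within the dim arrays. A second probe was dimmer and moved the same way, at 7.31, 7.43 and 7.21 against 6.05, 6.41 and 5.98, a difference of 1.17 (adjusted p = 0.0121). The ligand gene Tnfsf9 was detected on 1 of the 6 arrays, an ERαΔLysM array. Markers of T and NK cells, where Tnfrsf9 is also made, were at or near background, and 1 of 10 listed genes, Klrb1c, passed the filter on dim probes, with a difference of 0.03 and a level of 37 to 55 in ERαΔLysM and 34 to 59 in ERαf/f cells on the linear scale.

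RefSeq lists more than 1 start for Tnfrsf9, and the window upstream of the downstream start is shown because it was the only one of the 13 windows found for genes past the threshold to hold the letters of an AP-1 site or of an NF-κB site. The sequence is from the GRCm38.p6 build and gives the 250 bases before the start, with the letters of an NF-κB site (GGGA and CC, 4 bases apart) and then of an AP-1 site (TGA and TCA, 1 base apart) in capitals.
Tnfrsf9 (chr4:150927749-150927998, plus strand): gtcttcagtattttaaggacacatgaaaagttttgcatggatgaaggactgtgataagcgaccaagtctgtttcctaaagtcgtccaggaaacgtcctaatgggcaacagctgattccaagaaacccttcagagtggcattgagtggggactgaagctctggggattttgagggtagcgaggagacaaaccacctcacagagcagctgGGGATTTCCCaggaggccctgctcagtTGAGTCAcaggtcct
Both strands were searched, and the matches do not overlap. Of all 32851 RefSeq promoter windows of this length, 6.75% held the AP-1 letters and 17.6% the NF-κB letters, and these letters are a description of the window, not a test of binding.

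No other TNF receptor gene passed the test. Of 25 listed, 13 were tested, with 1 higher, none lower and a median of 0.08 log2 units, beside 0.00 over all 7876 tested genes. Tnfrsf11a, which encodes RANK, was at 10.70, 10.00 and 10.35 in ERαΔLysM and 10.89, 10.48 and 10.65 in ERαf/f cells, and the groups overlapped (difference −0.32, adjusted p = 0.67 from limma). Fas, the death receptor gene, had a difference of −0.10 on its brightest probe (adjusted p = 0.89) and −0.44 on a dimmer one (adjusted p = 0.54), and Fasl was below detection on all 6 arrays. Lta, the gene of the TNF-related ligand lymphotoxin α, was at 5.36, 5.90 and 6.34 in ERαΔLysM cells, where it was detected on 3 arrays, and at 5.07, 4.97 and 4.89 in ERαf/f cells, where it was detected on none (adjusted p = 0.10). Of the 22 tested genes of the NF-κB pathway, which these receptors feed, none passed in either direction and the median was 0.01. The inhibitor gene Tnfaip3 had the lowest unadjusted p among those above 0, with a difference of 0.28 (adjusted p = 0.50).

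The highest difference on the arrays was in Cyb561, which encodes cytochrome b561, a membrane protein that passes electrons from ascorbate across vesicle membranes. Its values were 8.51, 8.37 and 8.51 log2 units in ERαΔLysM and 7.06, 6.71 and 6.41 in ERαf/f pre-osteoclasts. The ERαΔLysM arrays lay close together and more than 1 unit above the others. The difference was 1.74 (standard error 0.14, adjusted p = 2.56e-05), or 3.33-fold, with 1.62 within the bright and 2.03 within the dim arrays. The related genes Cyb561d1, Cyb561d2, Cyb561a3 and Frrs1 had differences of −0.37, −0.25, −0.08 and −0.22, and none passed. None of their arrays stood clear of the other genotype. In the list of cytochrome b561 relatives and iron handling genes, 1 of 13 tested genes was higher and none lower, beside 8 and 4 of all 7876 tested genes. Slc11a2, an iron transporter gene, had a difference of 0.37 (adjusted p = 0.43).

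In vesicle traffic, both Arf2 and Nsf rose in ERαΔLysM cells. Arf2 encodes a small GTPase of the ARF family, which recruits coats to Golgi membranes. It was at 10.55, 10.48 and 10.34 in ERαΔLysM cells, against 9.51, 9.23 and 9.21 in ERαf/f cells, a difference of 1.14 (standard error 0.11, adjusted p = 4.73e-05 from limma), or 2.21-fold. Within the bright and dim arrays the difference was 1.18 and 1.20. Nsf encodes the ATPase that pulls apart SNARE complexes after membrane fusion, and was among the more abundant transcripts, at 12.17, 11.71 and 11.91 against 11.10, 11.11 and 10.98. Its difference was 0.87 (standard error 0.12, adjusted p = 0.0037), or 1.82-fold, and 1.07 and 0.83 within the bright and dim arrays. For both genes the groups were clear of each other. Of 36 tested genes for SNAREs, ARFs and their partners these were the only 2 that passed, beside 8 higher and 4 lower of all 7876, and the median of the list was 0.04. Close relatives kept to small differences, with 0.02 for Arf1, 0.11 for Arf3 and −0.05 for Napa, which encodes the α-SNAP partner of NSF.

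Arf2 and Nsf are neighbors on chromosome 11, where they lie head to head on opposite strands, so their upstream windows are shown side by side (GRCm38.p6, the 250 bases before the start, 5′ to 3′). Capitals mark the letters GGTCA, 1 arm of an estrogen response element, searched on both strands.
Arf2 (chr11:103966475-103966724, plus strand): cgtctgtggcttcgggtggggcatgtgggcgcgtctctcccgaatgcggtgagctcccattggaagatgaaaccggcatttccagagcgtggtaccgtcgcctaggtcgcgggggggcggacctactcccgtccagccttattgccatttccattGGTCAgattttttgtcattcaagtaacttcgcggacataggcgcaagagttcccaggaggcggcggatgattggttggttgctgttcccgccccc
Nsf (chr11:103954057-103954306, minus strand): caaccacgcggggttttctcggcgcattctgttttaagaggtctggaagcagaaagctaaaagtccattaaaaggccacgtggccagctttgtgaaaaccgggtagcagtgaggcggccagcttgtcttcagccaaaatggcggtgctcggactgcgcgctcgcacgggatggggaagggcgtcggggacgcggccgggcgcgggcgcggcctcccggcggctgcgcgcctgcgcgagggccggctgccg
The Arf2 window held 1 such arm and the Nsf window none. Promoter windows were found for 10 of the 15 named genes past the threshold, 13 windows in all. The full palindrome, GGTCA and TGACC 3 bases apart, which contains the arm, was in 0 of the 13 and in 0.06% of all windows. The single arm was in 6 (46.2%), of Arf2, Cep135, Gna13, Ltf and Rassf4, and in 35.2% of all windows. The 6 count a second Arf2 window, which overlaps the one shown and holds the same site.

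Gna13, which encodes the α subunit of the heterotrimeric G protein G13, was at 12.16, 11.95 and 11.86 log2 units in ERαΔLysM cells and 11.53, 11.21 and 11.12 in ERαf/f cells. The groups did not overlap, and the difference was 0.70 (standard error 0.11, adjusted p = 0.0182 from limma), or 1.63-fold. Its paralog Gna12 had a difference of −0.30, Gna11 −0.34 and Gna15 −0.47, and none of these passed.

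Ltf and Ctsg encode lactoferrin and cathepsin G, which neutrophils and their precursors store in granules. Ltf was at 9.90, 9.77 and 9.85 log2 units in ERαΔLysM and 9.13, 9.32 and 9.05 in ERαf/f pre-osteoclasts, a difference of 0.67 (adjusted p = 0.0121 from limma). Its second probe was detected on 1 array only. Ctsg was close to background, at 6.53, 6.51 and 6.80 against 5.12, 5.88 and 5.53, and was detected on all 3 ERαΔLysM and on 2 ERαf/f arrays (difference 1.10, adjusted p = 0.0401). Of 15 neutrophil markers, these included, 13 were tested, 12 had differences above 0 (50.8% of all tested genes did), and the median was 0.48, or 0.24 with arrays centred on their medians, where all tested genes had a median of −0.22. In BMMs their median was 0.50 and in mature osteoclasts 0.18. Besides Ltf and Ctsg none passed the test, and Mmp8 was not tested because it was detected on fewer than 3 arrays. With these 2 included, 6 of the 13 were higher at an unadjusted p under 0.05 from limma, beside 356 of all 7876 tested genes. For 4 of the 13 the ERαΔLysM arrays were all above the others, beside 420 of all 7876. S100a8, a calprotectin gene, was at 12.39, 12.90 and 12.98 in ERαΔLysM and 11.47, 12.36 and 12.99 in ERαf/f cells, and the groups overlapped. Camp, which encodes cathelicidin, was at 8.02, 8.60 and 9.02 against 7.27, 7.94 and 8.50. The summed level of the 13 genes on the linear scale was 10360 to 15081 in ERαΔLysM and 6212 to 13254 in ERαf/f cells, and the part that neutrophil transcripts had in other differences was not tested.

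The last 2 genes that were higher were Antxr1 and Srd5a3. Antxr1 encodes an anthrax toxin receptor that binds collagen, and was near background at 6.32, 6.68 and 6.25 in ERαΔLysM and 5.52, 5.68 and 4.90 in ERαf/f cells (difference 1.05, adjusted p = 0.0401 from limma). On this probe Antxr1 was detected on 2 of the 3 ERαf/f arrays. Its second probe was detected on 1 ERαΔLysM array and no ERαf/f array and was not tested. There the groups overlapped, with a difference of 0.23. Srd5a3 encodes an enzyme that makes dolichol for protein glycosylation. Its difference was small but its arrays agreed closely, at 10.36, 10.42 and 10.36 against 9.91, 9.98 and 9.82 (difference 0.48, adjusted p = 0.0449). Its other probes gave 0.27 and 0.07 and did not pass.

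Among genes that were lower in ERαΔLysM pre-osteoclasts, Tmem267 had the lowest p. It encodes a transmembrane protein and was at 6.99, 6.99 and 6.89 log2 units in ERαΔLysM cells and 8.50, 8.29 and 8.14 in ERαf/f cells. All ERαf/f arrays were more than 1 unit higher. The difference was −1.35 (standard error 0.14, adjusted p = 0.000134 from limma), 2.55-fold, with −1.40 and −1.21 within the bright and dim arrays. Cep135, which encodes a centriole assembly protein, had the lowest difference of all, −1.60, with a wide standard error of 0.30 (adjusted p = 0.0449). It was at 6.85, 6.74 and 6.51 in ERαΔLysM and 8.47, 8.04 and 8.40 in ERαf/f cells.

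Cox18 encodes a factor that inserts a subunit of respiratory complex IV into the inner mitochondrial membrane. It was at 9.64, 9.64 and 9.85 log2 units in ERαΔLysM and 10.41, 10.46 and 10.39 in ERαf/f cells, a difference of −0.71 (adjusted p = 0.0146 from limma). The second probe, at 10.51, 10.45 and 10.63 against 10.83, 10.69 and 10.97, gave −0.30 and missed the threshold (adjusted p = 0.47). Rassf4, the gene of a Ras association domain protein, was at 5.82, 6.09 and 6.27 in ERαΔLysM and 6.83, 7.18 and 7.24 in ERαf/f cells on the probe that passed (difference −1.02, adjusted p = 0.0401). Its other 3 probes had differences of 0.02, −0.11 and 0.36 and did not pass, so its probes disagreed. Acbd4, which encodes an acyl-CoA binding protein, fell by 0.73 (adjusted p = 0.0449), at 7.96, 7.37 and 7.49 in ERαΔLysM and 8.18, 8.53 and 8.31 in ERαf/f cells. A second probe gave −0.68 (adjusted p = 0.20). Stac2, the gene of an adaptor of calcium channels, was at 6.19, 6.52 and 6.21 against 6.99, 7.22 and 7.32 (difference −0.87, adjusted p = 0.0449). The probe ILMN_2633062, which has no gene symbol in the annotation used, was at 6.75, 6.51 and 6.71 in ERαΔLysM and 7.63, 7.34 and 7.51 in ERαf/f cells (difference −0.84, adjusted p = 0.0121).

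Whether these differences depended on the stage was tested with the interaction of genotype and stage. Between pre-osteoclasts and BMMs the genotype difference itself differed for 5 probes (0.0432%) at an adjusted p under 0.05, those of Cyb561, Tnfrsf9 (the brighter probe), Tmem267, Arf2 and Vegfa. The probes of Cyb561, Tnfrsf9 and Tmem267 were below detection on all 6 BMM arrays, so no genotype difference could be read there. Cyb561 was at 4.98, 4.74 and 4.74 in ERαΔLysM and 4.80, 4.92 and 4.57 in ERαf/f BMMs. By contrast Arf2 was well expressed before RANKL, at 11.04, 11.14 and 10.97 in ERαΔLysM and 10.83, 10.73 and 10.95 in ERαf/f BMMs. Its difference there was 0.21 (adjusted p = 0.38 from limma) and 0.93 larger in pre-osteoclasts (adjusted p of the interaction 0.0334). Over the stages of BMM, pre-osteoclast and mature osteoclast, Arf2 averaged 11.05, 10.46 and 10.52 in ERαΔLysM cells, against 10.84, 9.32 and 9.40 in ERαf/f cells.

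Vegfa, the gene of an angiogenic growth factor, came in through the earlier stage. It was at 9.09, 9.19 and 8.79 in ERαΔLysM and 9.03, 8.50 and 8.94 in ERαf/f pre-osteoclasts, where the groups overlapped (difference 0.20, adjusted p = 0.75 from limma). In BMMs its difference was −1.11 (adjusted p = 0.00963), so the interaction was 1.31 (adjusted p = 0.0214).

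**Figure D3:**
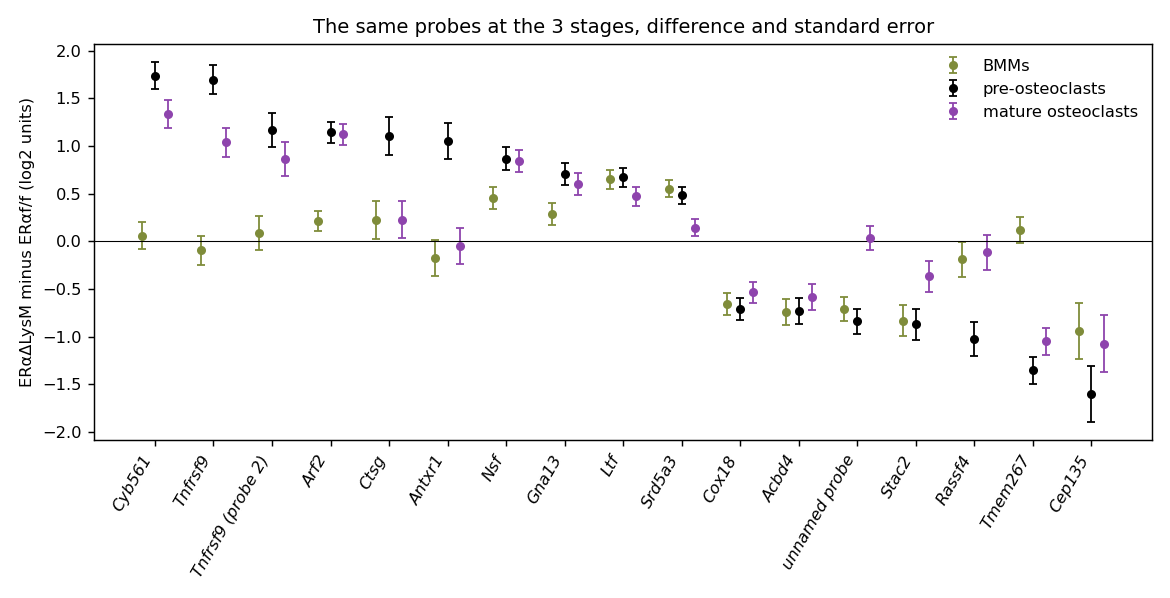
Genotype difference (ERαΔLysM minus ERαf/f, log2 units) with its standard error, by stage (BMM, pre-osteoclast, mature osteoclast), for the 17 probes past the threshold in pre-osteoclasts. Cyb561, the brighter Tnfrsf9 probe and Arf2 lie between −0.09 and 0.21 in BMMs and above 1 at both later stages, Tmem267 is below −1 at both, and Cox18 lies between −0.71 and −0.54 at all 3 stages.

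Toward the mature osteoclast, 5 of the 17 probes also passed the test of genotype at that stage, where 0.164% of all tested probes did. No probe passed the interaction between pre-osteoclasts and mature osteoclasts at an adjusted p under 0.05, with 475 (4.11%) at an unadjusted p under 0.05, which does not show that the differences were equal. Cyb561 averaged 10.45 in ERαΔLysM and 9.11 in ERαf/f mature osteoclasts, where its arrays were again clear of each other (difference 1.34, adjusted p = 0.000486). Arf2 differed by 1.12 there (adjusted p = 0.000184), the brighter Tnfrsf9 probe by 1.04 (adjusted p = 0.0065), Nsf by 0.84 (adjusted p = 0.00395) and Tmem267 by −1.05 (adjusted p = 0.00366). The dimmer Tnfrsf9 probe gave 0.86 (adjusted p = 0.091), and its interaction with BMMs of 1.08 did not pass either (adjusted p = 0.23). Antxr1 and Rassf4 had differences of −0.04 and −0.11 in mature osteoclasts and −0.17 and −0.19 in BMMs, none past the threshold. Antxr1 was detected on 1 of the 6 BMM arrays, so its value there is one of background. Ctsg was below detection on all 6 mature osteoclast arrays. Ltf, Cox18, Acbd4, Srd5a3, Stac2 and ILMN_2633062 also passed the test in BMMs, where 0.285% of all tested probes did, with differences of 0.65, −0.66, −0.74, 0.55, −0.83 and −0.71. Stac2 was below detection on all 3 ERαΔLysM BMM arrays.

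Several genes past the threshold shared a chromosome. Of the 16 probes with a gene, 6 mapped to chromosome 11 (Cyb561, Arf2, Nsf, Gna13, Acbd4 and Stac2), which held 9.07% of the tested probes with a chromosome. Another 3 mapped to chromosome 5 (Srd5a3, Cep135 and Cox18), which held 6.87%. On chromosome 10, which carries Esr1 and Lyz2, 0 of 517 tested probes passed, and 44 (8.51%) had an unadjusted p under 0.05. Along chromosome 11 the 6 genes stood between the 481st and the 586th of 693 tested genes, and on chromosome 5 the 3 genes between the 163rd and the 179th of 510. Within that stretch of chromosome 11, 22 of 106 genes (20.8%) had an unadjusted p under 0.05, 12 above 0 and 10 below, against 46 of 587 (7.8%) on the rest of the chromosome. The stretches were marked out by the genes that passed, so these shares are a description and carry no test.

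**Figure D4:**
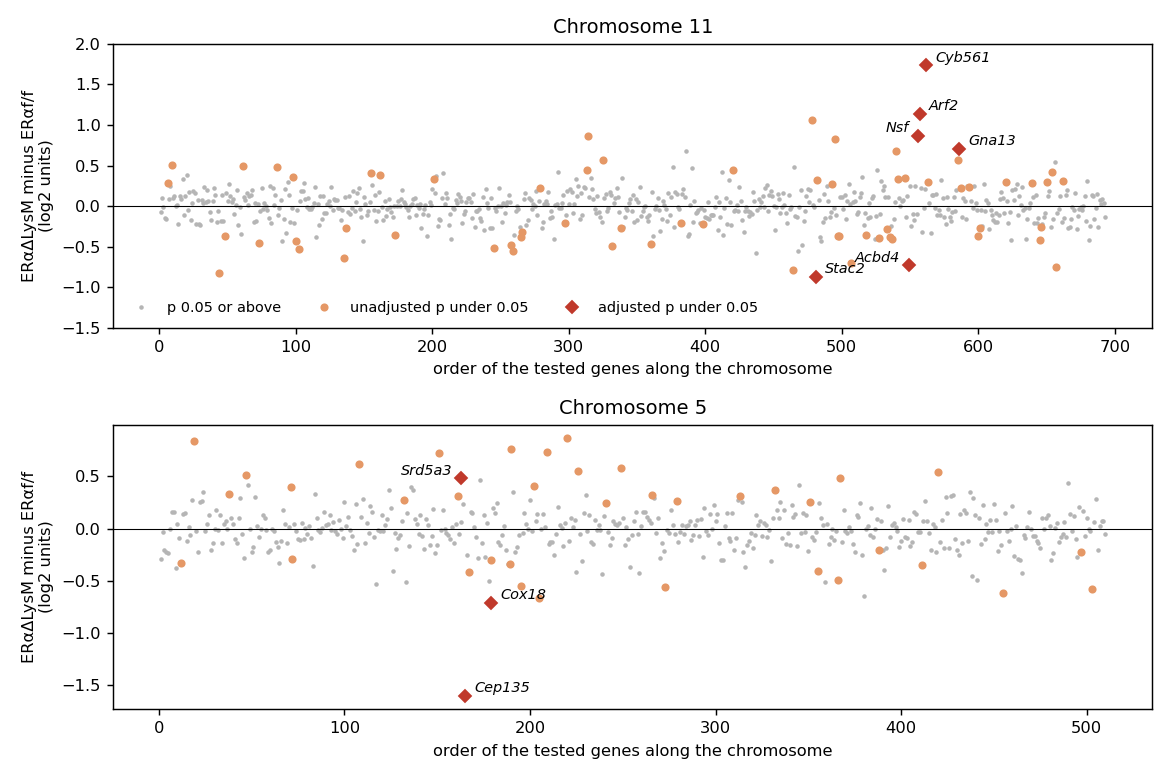
Genotype difference in pre-osteoclasts (ERαΔLysM minus ERαf/f, log2 units) for each tested gene in its order along chromosome 11 and chromosome 5. Diamonds are the probes past the threshold; Arf2 and Nsf sit side by side with Cyb561 and Gna13 nearby, while most genes between them did not pass the test.

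The change did not extend to every neighbor. Nsf and Arf2 were each other's nearest tested gene, but the next genes outward, Gosr2 and Sppl2c, had differences of −0.09 and 0.22 (adjusted p = 0.90 for both from limma). Beside Cyb561, Mrc2 was at 0.21 and Dcaf7 at 0.29 (adjusted p = 0.89 and 0.32). On either side of Gna13, Cep112 gave 0.57 (adjusted p = 0.35) and Amz2 0.22 (adjusted p = 0.54). Clock, which lies between Srd5a3 and Cep135 on chromosome 5, had a difference of 0.23 (adjusted p = 0.71), and the genes next to Tnfrsf9, Park7 and Vamp3, had −0.08 and −0.07. Dcaf7, Cep112 and Amz2, higher like the gene beside them, had an unadjusted p under 0.05 from limma. Gosr2, Sppl2c, Mrc2, Clock, Park7 and Vamp3 did not.

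Below the threshold, the largest differences with arrays clear of each other were as follows. Eif4g2, a translation initiation factor gene, was at 7.56, 8.05 and 7.54 in ERαΔLysM and 7.06, 6.12 and 6.24 in ERαf/f cells (difference 1.25, adjusted p = 0.065 from limma). Plxdc1, a plexin domain gene that also lies on chromosome 11, was at 7.58, 7.78 and 7.25 against 6.46, 6.06 and 6.89 (difference 1.07, adjusted p = 0.052). Slc3a2, which encodes the heavy chain of amino acid transporters, gave 0.97 (adjusted p = 0.11). On the other side Snx30, a sorting nexin gene, gave −1.11 (adjusted p = 0.11), Lsm12 −0.98 (adjusted p = 0.24) and Klf2, a transcription factor gene that holds macrophages in a resting state, −0.84 (adjusted p = 0.10). Klf2 averaged 6.25 ± 0.33 in ERαΔLysM and 7.08 ± 0.13 in ERαf/f cells (SD, n = 3 each). The other values of this kind ran from 0.88 to 1.13 above 0 (Rpap1, Kdm8, Lta, Spaca1, Chmp4c, ILMN_2816736 and ILMN_2754083) and from −0.96 to −0.82 below (Gas7, Wwc1, Lgals9, Kif1b, Actb on a dim probe, Ccm2 and Arid4a). Of these, Lsm12, Gas7, Wwc1, Lgals9 and Ccm2 also lie on chromosome 11, which held 9.07% of the tested probes with a chromosome. Only Lsm12, the 537th of 693 tested genes there, is within the stretch described above. Ccm2 (44th), Wwc1 (102nd), Gas7 (230th) and Lgals9 (360th) lie outside it. Plxdc1 (478th) lies just before its first gene, the 481st, and differed by 1.83 in mature osteoclasts (adjusted p = 0.000493 from limma). Several genes named in this paragraph have a brighter probe with another value, and none of these probes passed the threshold. The value was −0.01 for Eif4g2, −0.06 for Rpap1, 0.15 for Gas7, −0.05 for Kif1b and 0.16 for Actb. For Lsm12, Wwc1 and Lgals9 the brighter probe kept the direction, at −0.40, −0.53 and −0.47, with an unadjusted p under 0.05 from limma.

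Genes of the osteoclast program showed little difference. None of the 14 tested osteoclast markers passed the test, 9 were above 0 and their median was 0.13, which turned to −0.17 with arrays centred on their medians, where all genes had −0.22. That scaling put below 0 every positive list median given here except that of the neutrophil markers. Tcirg1, a subunit gene of the acid-secreting proton pump, had its arrays clear of each other, at 13.41, 13.17 and 13.17 in ERαΔLysM and 13.06, 13.05 and 12.91 in ERαf/f cells (difference 0.24, adjusted p = 0.47 from limma). Calcr gave 0.69 (adjusted p = 0.45) on values near background. None of 18 tested transcription factors of the lineage passed, and the median was −0.07. Nfatc1 was at 10.36, 10.37 and 10.50 in ERαΔLysM and 10.52, 10.44 and 10.32 in ERαf/f cells. Lower values with an unadjusted p under 0.05 were those of Mef2c (−0.73, adjusted p = 0.10), Mitf (−0.61, adjusted p = 0.49) and Id3 (−0.52, adjusted p = 0.35). Of 11 genes for cell fusion none passed, and Dcstamp and Ocstamp, which are needed for fusion, gave 0.22 and −0.21.

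Of 5 tested macrophage markers none passed and the median was −0.22. Cx3cr1, the fractalkine receptor gene, was at 7.33, 7.21 and 7.27 in ERαΔLysM and 7.96, 7.88 and 7.30 in ERαf/f cells (difference −0.44, adjusted p = 0.34 from limma). Cd14 gave −0.26 with its arrays clear of each other (adjusted p = 0.44). The summed linear level of the 5 genes was 3482 to 4144 in ERαΔLysM and 3949 to 4286 in ERαf/f cells. Lists for B cells, stromal cells and osteoblasts, erythroid cells and megakaryocytes, and mast cells each had 1 tested gene, and that for dendritic cells none.

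**Figure D5:**
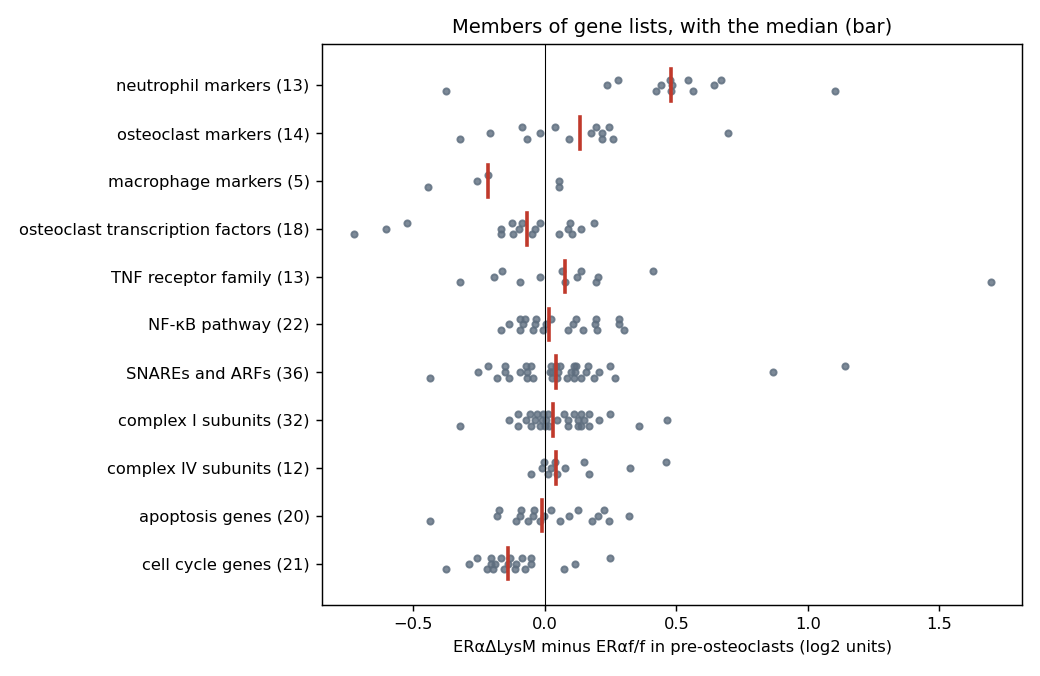
Genotype difference in pre-osteoclasts (ERαΔLysM minus ERαf/f, log2 units) for each tested gene of 11 lists, with the number of genes in parentheses and the median as a bar. The neutrophil markers lie mostly above 0 (median 0.48) and the cell cycle genes mostly below (median −0.14), while the respiratory chain lists stay around 0 and Tnfrsf9, Arf2 and Nsf stand apart within theirs.

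Nuclear genes of the respiratory chain had medians near 0. Of 32 tested subunits of complex I, none passed in either direction, 0 had an unadjusted p under 0.05, 20 were above 0 and the median was 0.03, from −0.32 for Ndufb11 to 0.46 for Ndufb4. Their mean level on an array was 11.69 to 12.10 in ERαΔLysM and 11.56 to 12.14 in ERαf/f cells, and the genotypes overlapped. Ndufs4, a subunit gene needed for complex I assembly, gave −0.14 on its brightest probe (adjusted p = 0.82 from limma). Its other probes gave 0.14, −0.04 and 0.13 and did not pass. The medians were 0.06 for 11 genes of complexes II and III, 0.04 for 12 of complex IV, 0.07 for 15 of complex V and −0.04 for 11 complex I assembly factors, with none called. Among 18 tested complex IV assembly factors, Cox18 was counted by its brighter probe (−0.30), while its other probe passed the test, as given above. With 1 probe per gene, the brightest, none of the 18 passed, and their median was 0.01. These medians turned to values from −0.28 to −0.22 with arrays centred on their medians, beside −0.22 for all genes. Among regulators of mitochondrial biogenesis, Ppargc1b, which encodes the coactivator PGC-1β, was at 11.09, 10.97 and 10.98 in ERαΔLysM and 10.76, 10.84 and 10.69 in ERαf/f cells. Its arrays were clear of each other, but the difference of 0.25 did not pass (adjusted p = 0.54). Tfam, which maintains mitochondrial DNA, gave −0.08 on its brightest probe, and Polg, the mitochondrial DNA polymerase gene, −0.48 (adjusted p = 0.50).

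Apoptosis genes likewise gave no call among 20 tested, with a median of −0.01. Bak1, a gene whose product opens the outer mitochondrial membrane, was at 7.05, 6.19 and 6.85 in ERαΔLysM and 6.67, 6.98 and 6.78 in ERαf/f cells. Bcl2l2, which encodes the survival protein BCL-W, gave 0.32 (adjusted p = 0.31 from limma). Cell cycle genes were mostly below 0, 18 of 21 with a median of −0.14, beside 3872 of all 7876 tested genes, but none passed. For 5 of the 21 the ERαΔLysM arrays were all below the others, beside 404 of all 7876 tested genes. Ccnd1, the cyclin D1 gene, gave −0.38 (adjusted p = 0.33) and Birc5, which encodes survivin, −0.26 (adjusted p = 0.57), both with arrays clear of each other. The summed linear level of the 21 genes was 38748 to 43381 in ERαΔLysM and 43157 to 47575 in ERαf/f cells.

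A list of genes known to respond to estrogen in other tissues gave no call. The list is a selection, and Ltf, which passed the test, was not among its tested members. Of 15 listed, 7 were tested, 4 were above 0 and the median was 0.12, or −0.05 with arrays centred on their medians. Igfbp4, an IGF-binding protein gene, gave −0.37 (adjusted p = 0.25 from limma) with its arrays clear of each other, and Greb1 and Pgr, classical targets, did not pass the filter. In the remaining lists, those of estrogen receptor partners, inflammatory mediators, interferon-stimulated genes, peroxide defense, glycolysis, cholesterol synthesis, early response genes and reference genes, none of the tested members passed, and the medians lay between −0.11 and 0.11. The interferon list ran from −0.51 for Zbp1 to 0.65 for Bst2 (adjusted p = 0.50 and 0.44).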

How the data were processed

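RNA of 18 samples was hybridized by the authors to Illumina MouseRef-8 beadchips, and the scanner intensity of each probe was deposited with a p-value for its detection over control beads. The authors also deposited log2 values, which were used here. The study's methods name lumi for them, and neqc of limma with an offset of 16 gave the same values to a median of 0.000443 and at most 0.0282. The methods name version 1 of the array, while the annotation used was that of version 2. Of 26529 features with a deposited scanner intensity, 832 (3.14%) had no probe ID there and were not tested. A probe was tested if detected (p under 0.05) on 3 or more of the 6 pre-osteoclast arrays, 11568 in all, of which 667 had no gene symbol, and 10895 matched RefSeq genes (GRCm38.p6). A mean per genotype and stage was fitted to all 18 arrays with lmFit and eBayes in limma 3.58.1 (R 4.3.3; 12 residual and 3.62 prior degrees of freedom), with Benjamini-Hochberg adjustment over the tested probes and a threshold of 0.05. The median standard error was 0.159, and the number of arrays limits the precision. In 36 lists a gene was represented by its tested probe with the highest mean level. Named genes were those past the threshold, the 10 highest and 10 lowest of the others with arrays clear of each other and an unadjusted p under 0.05, genes the study names, up to 2 members of a list each way by p, interaction calls and nearest neighbors. The members, lists and rules were chosen with earlier results of these data known. Alternatives covered the values, scaling, filter, arrays fitted, prior, weights, blocks, thresholds and leaving out arrays. The scripts were tested on simulated data. Figures were drawn with matplotlib 3.10.9.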

Additional observations from a re-analysis of the deposited data

Results flagged for a closer look

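The genotype difference in pre-osteoclasts differed from that in BMMs for 5 probes by the interaction test (limma, Benjamini-Hochberg adjusted). The value in pre-osteoclasts minus that in BMMs was 1.68 log2 units for Cyb561 (adjusted p = 0.00229) and 1.79 for 1 probe of Tnfrsf9 (adjusted p = 0.00229). It was 1.31 for Vegfa (adjusted p = 0.0214), 0.93 for Arf2 (adjusted p = 0.0334) and −1.47 for Tmem267 (adjusted p = 0.00538). For Vegfa the genotype difference was 0.20 in pre-osteoclasts and −1.11 in BMMs, so its value came from the BMMs. The probes of Cyb561, Tnfrsf9 and Tmem267 were below detection on all 6 BMM arrays, those of Vegfa and Arf2 detected on all 6. Groups of 3 arrays were not examined for outlying samples.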

How the results depend on the processing

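None of the 17 probes past the threshold in pre-osteoclasts was reversed under the alternatives that tested it (26, or 25 for Antxr1 and Ctsg), and Cyb561 passed in all 26. The number of probes was 4 with a median per array instead of quantiles as the scaling, 10 with no filter on dim probes, 3 with only the 6 pre-osteoclast arrays, 9 with the pre-osteoclast and BMM arrays, 4 with the pre-osteoclast and mature osteoclast arrays, 29 with a trended robust prior, 5 with array weights and 5 at an adjusted p under 0.01. It was 6 to 14 when 1 array was left out and 13 to 22 under the remaining planned settings. In comparisons chosen after seeing the data, the 3 bright pre-osteoclast arrays gave 4 and the 3 dim ones 14, of which 5 were among the 17. There a lone array was assumed to vary like the other groups. Arrays of the same replicate number correlated at 0.40, −0.03 and 0.08 in their deviations, so the number was not taken as a pairing. With it as a replicate block over all arrays 13 passed, and with the block within each stage 4.

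For the difference between pre-osteoclasts and BMMs, 5 probes became 1 with median-centred arrays, 8 with no filter, 3 with only the arrays of both stages, 9 with the trended prior, 0 with the replicate block within each stage, 3 at an adjusted p under 0.01, 0 with the bright arrays and 3 to 7 with 1 array left out. For that between pre-osteoclasts and mature osteoclasts, 0 became 1 with no filter, with detection on all 6 arrays or on at least 3 of 18, and at an adjusted p under 0.1, 7 with the dim arrays and 0 to 1 with 1 array left out. Medians of 27 lists stayed within 1 SD of the arrays in 216 of 270 recomputed values, and 25 of the 54 that moved further came from median-centred arrays. The cause of these changes was not tested. A probe near background gives no reliable fold, and 3 arrays a group limit what can be called.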
